A study of Mus musculus with 6 samples.

Results

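The DNA replication genes are the machinery with which a cell copies its genome before it divides, together with enzymes that make DNA building blocks. They were chosen by gene symbol from a list, not by a cut on any measured value, though earlier results of these data were known. All 42 were found among the 32227 genes of the files. By role, licensing of origins has Orc1, Orc6, Cdc6 and Cdt1, and the MCM helicase has Mcm2, Mcm3, Mcm4, Mcm5, Mcm6 and Mcm7. Helicase activation has Mcm10, Cdc45, Gins1, Gins2 and Gins3, and the polymerases and primase are Pola1, Pold1, Pole, Prim1 and Prim2. The sliding clamp, its loader and single-strand binding have Pcna, Pclaf, Rfc2, Rfc3, Rfc4, Rfc5 and Rpa2, and joining of Okazaki fragments has Fen1 and Lig1. Nucleotide supply has Rrm1, Rrm2, Tyms, Tk1 and Dut, chromatin and DNA methylation have Uhrf1, Dnmt1, Slbp, Chaf1a and Chaf1b, and entry into S phase has E2f1, Ccne1 and Ccne2.

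The study made single-cell libraries with the PIPseq v3 kit from CD8-enriched cells of thymus, spleen and B16-OVA melanoma, from adult C57BL/6 mice with floxed Pdcd1 alleles. Control mice were Pdcd1fl/fl without Cre, and Pdcd1 cKO mice carried E8I CD8-Cre as well, which is driven by Cd8a control elements and deletes the floxed gene after positive selection. Thymus and spleen were taken at baseline from 1 mouse per genotype, and each tumor library pooled cells of 3 mice, taken 12 days after injection of the melanoma cells. With 1 library per genotype and tissue there are no replicates, so no test was made, and every interval below is a 95% interval for counting error alone.

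Origins of replication are licensed in G1, when the origin recognition complex, Cdc6 and Cdt1 load the MCM helicase, and the helicase is then activated by Cdc45 and GINS as S phase begins. Most of these genes are transcribed under E2F control and peak around the G1 to S transition, so their RNA is a common marker of cycling cells. In the thymus, part of the immature thymocytes divide rapidly before positive selection, and mature single-positive cells mostly rest. CD8 T cells return to cycle when antigen activates them in tissues or tumors.

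Pdcd1, the gene deleted in the model, was read first as a check of the labels. It had 12 unique molecular identifiers (UMIs, each standing for 1 RNA molecule) in the thymic library labelled Pdcd1fl/fl and 131 in the thymic library labelled Pdcd1 cKO, or 1.88 and 6.84 UMIs per 1000000 UMIs of the library (CPM). In the spleen it had 1 and 104 UMIs, or 0.450 and 11.7 CPM, and in the tumors 717 and 808 UMIs, or 76.4 and 102 CPM. Pdcd1 RNA was thus higher, not lower, under the Pdcd1 cKO label in every tissue. UMIs are counted over the whole gene and do not tell a deleted allele from an intact one, and the reason was not tested. Libraries are therefore named by their labels, and paired values stand in the order Pdcd1fl/fl label, then Pdcd1 cKO label. The paired libraries also differ in depth: after the cell filter the medians were 4361 and 5417 UMIs per thymic cell, 1320.5 and 1615 per splenic cell, and 13809.5 and 9510 per tumor cell. The splenic libraries share 2 cell barcodes and no other pair shares any.

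Replication RNA differed between tissues and between labels. The 42 genes together held 0.570% (0.564 to 0.576%) and 0.393% (0.390 to 0.396%) of all UMIs in the thymic libraries, the largest shares of the series. In the spleen they held 0.0895% (0.0856 to 0.0935%) and 0.110% (0.108 to 0.113%), and in the T-cell-like cells of the tumors 0.242% (0.237 to 0.247%) and 0.260% (0.255 to 0.264%). Thymic shares thus lay above tumor shares, and tumor shares above splenic shares, under either label. Between labels, the thymic share was the lower under Pdcd1 cKO, with a log2 ratio of −0.53 (−0.55 to −0.52). It was higher under that label in the spleen, with a log2 ratio of 0.30 (0.23 to 0.37), although this turned to −0.26 when only cells with at least 2000 UMIs, at least 1000 genes and at most 10% mitochondrial UMIs were kept. In tumor T-cell-like cells the log2 ratio was 0.10 (0.07 to 0.14), and it turned to −0.02 when mitochondrial, ribosomal protein and Malat1 UMIs were left out of the total. In such sums, fewer cycling cells and less replication RNA per cycling cell cannot be told apart.

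**Figure D1:**
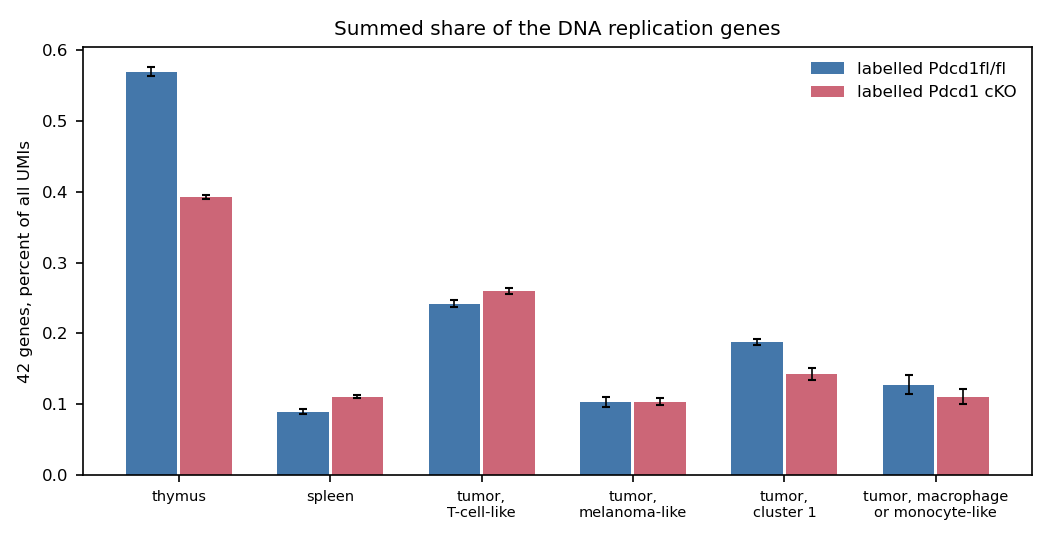
Summed UMIs of the 42 DNA replication genes as a percent of all UMIs (vertical axis, from 0) in 6 cell populations, with 1 bar for each label and 95% Poisson intervals as whiskers. The thymic bars stand highest, at 0.570% and 0.393%. The lowest bar is the splenic one under the Pdcd1fl/fl label, at 0.0895%, and the splenic bar under the other label is at 0.110%.

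Gene by gene, the thymic difference ran through nearly the whole list. Of the 42 genes, 40 had a log2 CPM ratio below 0 and 2 above 0, with a median of −0.57 against −0.02 over all genes with at least 20 UMIs in the pair. Few passed 2-fold: Rfc4, Tyms and Pclaf, 3 of 42, were at least 2-fold lower under the Pdcd1 cKO label (against 5.33% of all genes), and 0 were at least 2-fold higher (against 8.75%). With the total reduced by mitochondrial, ribosomal protein and Malat1 UMIs, or under a median of ratios, only Rfc4 remains past 2-fold. In the spleen 41 members had at least 20 UMIs, of which 33 lay above 0 and 8 below, with a median of 0.40 against 0.17 over all genes. Chaf1a, Gins3, Rrm2, Tk1 and Mcm2, 5 of 41, were at least 2-fold higher there (against 9.18% of all genes) and 0 at least 2-fold lower (against 2.83%). Tumor T-cell-like cells had 24 members above 0 and 18 below, with a median of 0.05 against 0.09. There 0 members were 2-fold higher (against 9.62% of all genes) and 0 were 2-fold lower (against 4.28%). In each tissue the counts past 2-fold are thus close to or under what all genes show and say little about the members, while the thymic medians describe a modest, shared shift.

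How the total is counted moves every ratio of a tissue by the same amount. Leaving mitochondrial, ribosomal protein and Malat1 UMIs out of the total shifts thymic ratios by 0.18, splenic ratios by −0.14 and tumor T-cell ratios by −0.13. Scaling by the median of ratios shifts them by 0.07, −0.17 and −0.08. In the thymus Orc6, Cdt1, Orc1 and Rfc3 then turn above 0, so 36 of 42 remain below under the reduced total. Under the median of ratios in the spleen, Mcm7, Cdt1, Rfc4, Rrm1, Uhrf1 and Dnmt1 turn below 0, which leaves 27 of 41 above. Among tumor T-cell-like cells, 8 members turn under the reduced total, namely Mcm7, Cdc6, Pola1, Prim2, Rfc2, Rrm1, Rrm2 and Chaf1b, and 16 of 42 remain above 0.

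**Figure D2:**
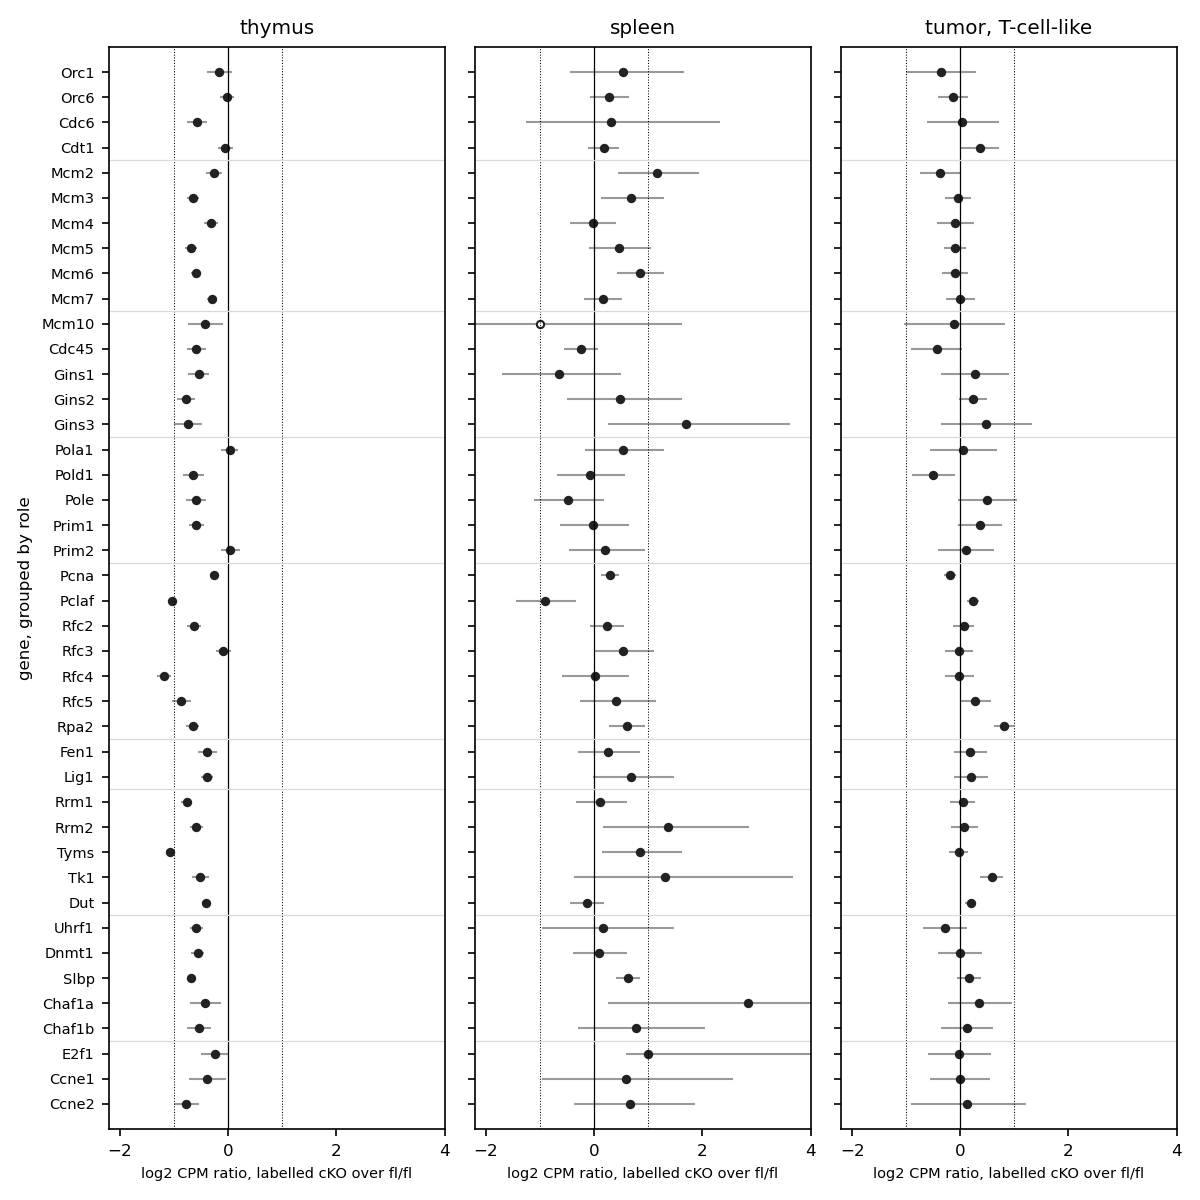
Log2 CPM ratio (Pdcd1 cKO label over Pdcd1fl/fl label, horizontal axis) of each of the 42 genes, grouped by role, in thymus, spleen and tumor T-cell-like cells. Points are ratios, lines are 95% intervals for counting error (some run past the axis in the spleen), the open circle had under 20 UMIs, and dotted lines mark 2-fold. Most thymic points lie left of 0.

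Licensing genes moved least in the thymus. Their summed log2 ratio was −0.15 (−0.23 to −0.07) in the thymus, 0.23 (0.02 to 0.45) in the spleen and 0.01 (−0.18 to 0.21) in tumor T-cell-like cells, and with the reduced total it turned to 0.03 in the thymus and −0.11 in the tumors. Orc6, a subunit of the origin recognition complex and the licensing gene with the most UMIs, stood at 103 and 101 CPM in the thymic libraries, 36.9 and 44.6 in the spleens and 52.4 and 47.7 in the tumor T-cell-like cells. Its log2 ratios were −0.02, 0.27 and −0.14, so thymic levels under the labels lay within counting error of each other (−0.15 to 0.11). Cdc6, the ATPase that helps load the helicase, was the licensing gene with the lowest thymic ratio, −0.58 (−0.76 to −0.40), from 58.7 and 39.2 CPM. The licensing genes also made up a larger part of the replication RNA in the spleen: 11.1 and 10.6% of member UMIs, compared with 4.92 and 6.42% in the thymus and 4.14 and 3.89% in tumor T-cell-like cells.

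The MCM helicase, the ring that unwinds DNA at the fork, was lower in the thymic library labelled Pdcd1 cKO for all 6 subunits. Its summed log2 ratio was −0.48 (−0.52 to −0.43) in the thymus, 0.46 (0.27 to 0.65) in the spleen and −0.09 (−0.20 to 0.01) in tumor T-cell-like cells. Mcm7, the subunit with the most UMIs, stood at 269 and 218 CPM in the thymic libraries, 36.5 and 40.6 in the spleens and 51.1 and 51.1 in the tumor T-cell-like cells. This gives log2 ratios of −0.31, 0.15 and 0.00. The splenic value turns below 0 under the median of ratios only, and the tumor value under either scaling named above. Mcm2 stood at 84.5 and 70.5 CPM in the thymic libraries, 8.10 and 18.0 in the spleens and 31.0 and 23.9 in the tumor T-cell-like cells. With log2 ratios of −0.26, 1.15 and −0.37, it was the subunit that passed 2-fold in the spleen, from 18 and 161 UMIs, yet it was lower under the same label in tumor T-cell-like cells. The largest thymic difference among the subunits was that of Mcm5, at −0.68 (−0.80 to −0.57).

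Helicase activation includes Mcm10, Cdc45 and the GINS genes, whose products turn the loaded ring into a moving helicase. The summed log2 ratio was −0.64 (−0.73 to −0.56) in the thymus, −0.11 (−0.38 to 0.18) in the spleen and 0.12 (−0.08 to 0.31) in tumor T-cell-like cells, the only splenic sum below 0, and the tumor value turns to −0.01 with the reduced total. Gins2, the GINS subunit with the most UMIs, stood at 78.1 and 45.4 CPM in the thymic libraries, 4.5 and 6.28 in the spleens and 52.7 and 62.1 in the tumor T-cell-like cells. Its log2 ratios were −0.78, 0.48 and 0.24, so it was lower under the Pdcd1 cKO label in the thymus alone. Gins3 stood at 30.8 and 18.3 CPM in the thymic libraries, 1.80 and 5.83 in the spleens and 5.22 and 7.22 in the tumor T-cell-like cells. In the spleen it had 4 and 52 UMIs, a log2 ratio of 1.69 (0.25 to 3.62) that rests on few molecules. Gins1 stood at 54.0 and 36.9 CPM in the thymic libraries, 4.95 and 3.14 in the spleens and 9.65 and 11.6 in the tumor T-cell-like cells, with log2 ratios of −0.55, −0.66 and 0.26, so in the spleen it lay opposite to Gins3. Cdc45, the helicase's partner at the fork, stood at 63.4 and 42.2 CPM in the thymic libraries, 48.6 and 40.9 in the spleens and 20.1 and 14.8 in the tumor T-cell-like cells. At log2 ratios of −0.59, −0.25 and −0.44, it lay below 0 in every tissue. Mcm10 was scarce in the spleen, with 3 and 6 UMIs, under the minimum of 20 for a ratio.

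Polymerases and primase, which start and extend the new strands, had a summed log2 ratio of −0.32 (−0.40 to −0.25) in the thymus, 0.02 (−0.26 to 0.31) in the spleen and 0.06 (−0.14 to 0.27) in tumor T-cell-like cells. The splenic and tumor sums turn to −0.12 and −0.06 with the reduced total. Prim1, the catalytic subunit of primase, stood at 96.4 and 64.1 CPM in the thymic libraries, 12.6 and 12.4 in the spleens and 21.1 and 27.2 in the tumor T-cell-like cells, with log2 ratios of −0.59, −0.02 and 0.36. Prim2, the large primase subunit, stood at 58.1 and 59.6 CPM in the thymic libraries, 9.91 and 11.4 in the spleens and 14.3 and 15.4 in the tumor T-cell-like cells. Over the whole thymic library its log2 ratio was 0.04 (−0.13 to 0.21), but it was 0.27 (0.08 to 0.46) in immature and −1.01 (−1.50 to −0.50) in mature cells, as sorted below. Pola1, the catalytic subunit of the primase-coupled polymerase alpha, stood at 68.5 and 70.0 CPM in the thymic libraries, 9.01 and 13 in the spleens and 10.4 and 10.8 in the tumor T-cell-like cells, and its thymic log2 ratio was 0.03 (−0.13 to 0.19), with 0.17 in immature and −0.60 in mature cells. Prim2 and Pola1 were thus the only members above 0 in the whole thymic library, where stages that run in opposite directions are summed. Pold1, the lagging-strand polymerase, stood at 51.2 and 32.7 CPM in the thymic libraries, 13.1 and 12.3 in the spleens and 28.9 and 20.5 in the tumor T-cell-like cells. Its log2 ratios of −0.65, −0.08 and −0.50 gave the lowest value of the list in tumor T-cell-like cells. Pole, the leading-strand polymerase, stood at 55.9 and 37.1 CPM in the thymic libraries, 13.1 and 9.30 in the spleens and 11.7 and 16.5 in the tumor T-cell-like cells, with log2 ratios of −0.59, −0.49 and 0.49. In tumor T-cell-like cells, then, Pold1 and Pole lay on opposite sides of 0.

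The clamp, its loader and single-strand binding proteins held the largest part of the replication RNA, 29.1 and 27.8% of member UMIs for thymus, 35.4 and 34.8% for spleen and 37.8 and 38.6% in tumor T-cell-like cells. The summed log2 ratio was −0.60 (−0.64 to −0.57) in the thymus, 0.28 (0.16 to 0.40) in the spleen and 0.14 (0.07 to 0.20) in tumor T-cell-like cells. Pcna, the sliding clamp, stood at 596 and 495 CPM in the thymic libraries, 173 and 211 in the spleens and 299 and 261 in the tumor T-cell-like cells. Its log2 ratios were −0.27, 0.29 and −0.19, so the best-measured member differed little between labels, and its thymic difference was among the smaller ones. Pclaf, a PCNA-binding factor, stood at 519 and 253 CPM in the thymic libraries, 18.5 and 9.86 in the spleens and 275 and 322 in the tumor T-cell-like cells. It was 2.05-fold lower in the thymus and 1.87-fold lower in the spleen under the Pdcd1 cKO label, with log2 ratios of −1.04 (−1.10 to −0.97) and −0.90 (−1.45 to −0.33). That splenic value is the lowest of the list, in a tissue where most members lay above 0. In tumor T-cell-like cells Pclaf lay above 0, at 0.23 (0.12 to 0.34).

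Among the clamp loader genes, Rfc4 stood at 136 and 59.6 CPM in the thymic libraries, 13.1 and 13.1 in the spleens and 52.7 and 52.1 in the tumor T-cell-like cells. The thymic log2 ratio of −1.19 (−1.32 to −1.06) is the lowest of all 42 members, while the splenic and tumor values of 0.01 and −0.02 are near 0. Rfc3, another loader subunit, had a thymic ratio of only −0.09 (−0.22 to 0.05), which turns above 0 with the reduced total, although both subunits belong to the same loader. Rfc2 and Rfc5 lay between them, at −0.64 and −0.86. Rpa2, a subunit of the single-strand binding complex, stood at 121 and 76.9 CPM in the thymic libraries, 38.7 and 58.7 in the spleens and 92.1 and 161 in the tumor T-cell-like cells. With log2 ratios of −0.66, 0.60 and 0.81, it had the highest value of the list in tumor T-cell-like cells, 353 and 847 UMIs, and lay on the other side of 0 in the thymus.

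Fen1 and Lig1 trim and join Okazaki fragments. Their sum had a log2 ratio of −0.39 (−0.48 to −0.30) in the thymus, 0.43 (−0.01 to 0.89) in the spleen and 0.19 (−0.02 to 0.41) in tumor T-cell-like cells. Lig1, the ligase, stood at 169 and 129 CPM in the thymic libraries, 8.55 and 13.8 in the spleens and 36.5 and 42 in the tumor T-cell-like cells, with log2 ratios of −0.39, 0.69 and 0.20. Fen1, the flap nuclease, ran beside it, at −0.39, 0.25 and 0.19.

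Nucleotide supply took up a different part of the replication RNA in each tissue. The genes held 22.1 and 20.7% of member UMIs in the thymus and 26.1 and 27.4% in tumor T-cell-like cells, compared with 9.51 and 8.62% in the spleen. The summed log2 ratio was −0.63 (−0.67 to −0.59) in the thymus, 0.16 (−0.07 to 0.40) in the spleen and 0.18 (0.10 to 0.25) in tumor T-cell-like cells, and the splenic sum turns to −0.01 under the median of ratios. Dut, which clears dUTP, stood at 559 and 418 CPM in the thymic libraries, 50.9 and 46.2 in the spleens and 309.6 and 354 in the tumor T-cell-like cells, with log2 ratios of −0.42, −0.14 and 0.19. Tyms, which makes thymidylate, stood at 307 and 147 CPM in the thymic libraries, 8.55 and 15.4 in the spleens and 121 and 119 in the tumor T-cell-like cells. It was 2.09-fold lower in the thymic library labelled Pdcd1 cKO, with a log2 ratio of −1.07 (−1.15 to −0.98), and 0.84 and −0.02 in the spleen and the tumors. Rrm2, the small subunit of ribonucleotide reductase, stood at 132 and 87.2 CPM in the thymic libraries, 2.70 and 6.95 in the spleens and 60 and 63.3 in the tumor T-cell-like cells. In the spleen 6 and 62 UMIs gave a log2 ratio of 1.36 (0.16 to 2.86). Tk1, the thymidine salvage kinase, stood at 75.0 and 52.4 CPM in the thymic libraries, 1.35 and 3.36 in the spleens and 69.4 and 104 in the tumor T-cell-like cells. Its log2 ratios were −0.52, 1.32 and 0.58, where the splenic value rests on 3 and 30 UMIs and its interval of −0.37 to 3.67 includes 0. Tk1 and Rpa2 are the members with the highest tumor ratios, and both were lower in the thymus under the same label.

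Chromatin and DNA methylation genes gave a summed log2 ratio of −0.61 (−0.67 to −0.56) in the thymus, 0.56 (0.38 to 0.75) in the spleen and 0.07 (−0.09 to 0.23) in tumor T-cell-like cells, and the tumor sum turns to −0.06 with the reduced total. Slbp, which binds the stem-loop of histone mRNAs, stood at 265 and 165 CPM in the thymic libraries, 95.5 and 147 in the spleens and 69.6 and 77.7 in the tumor T-cell-like cells. Its log2 ratios were −0.68 (−0.77 to −0.60), 0.62 (0.41 to 0.84) and 0.16 (−0.07 to 0.39), opposite in thymus and spleen. Slbp also made up 10.7 and 13.3% of member UMIs in the spleen, compared with 4.65 and 4.19% in the thymus. Chaf1a, a subunit of the histone chaperone CAF-1, stood at 23.9 and 17.9 CPM in the thymic libraries, 0.450 and 3.25 in the spleens and 10.4 and 13.3 in the tumor T-cell-like cells. Its splenic log2 ratio of 2.85 (0.26 to 8.20) compares 1 and 29 UMIs and is therefore very uncertain. Uhrf1 and Dnmt1, which keep up DNA methylation behind the fork, lay at −0.59 and −0.56 in the thymus.

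Regulators of S phase entry had 5.85 and 11.8 CPM in all in the spleen, or 0.654 and 1.07% of member UMIs. The summed log2 ratio was −0.51 (−0.66 to −0.36) in the thymus, 1.01 (0.17 to 1.96) in the spleen and 0.01 (−0.36 to 0.38) in tumor T-cell-like cells, and the tumor sum turns to −0.12 with the reduced total. E2f1, a transcription factor that switches on S phase genes, stood at 27.7 and 23.3 CPM in the thymic libraries, 0 and 2.69 in the spleens and 11.7 and 11.6 in the tumor T-cell-like cells. In the spleen it had 0 and 24 UMIs, and with a floor of 3 counts for the library at 0 this is at least 1.99-fold. E2f1 was the only member at 0 UMIs in a library, and only in the splenic one labelled Pdcd1fl/fl. The cyclin E genes Ccne1 and Ccne2, partners of Cdk2 at the G1 to S transition, had thymic log2 ratios of −0.39 (−0.73 to −0.05) and −0.77 (−1.0 to −0.55).

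The make-up of replication RNA changed with tissue more than with label. Pcna, Dut and Pclaf had the most UMIs in the thymus (29.4 and 29.7% of member UMIs between them) and in tumor T-cell-like cells (36.6 and 36.1%). Pcna, Slbp and Cdt1 led in the spleen (36.3 and 38.1%). Pclaf made up 9.12 and 6.44% in the thymus and 11.4 and 12.4% in tumor T-cell-like cells, but 2.06 and 0.893% in the spleen. Splenic replication RNA is thus weighted to Pcna, Slbp and the licensing gene Cdt1, and poor in Pclaf and in the nucleotide supply genes.

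The thymic libraries hold thymocytes of several stages, so the members were also read by stage. Cells with a UMI of Dntt, Rag1, Rag2 or Ptcra, genes of immature thymocytes, were called immature, and numbered 781 and 1543, or 73.2 and 58.6% of cells. A single UMI decides here, free RNA was not subtracted, and deeper cells pass more easily: the medians were 5145 and 6070 UMIs in immature and 3448 and 4914 in mature cells. Cells with none of these but with a UMI of Ccr7, Klf2 or S1pr1, genes of thymocytes about to leave, were called mature. They numbered 221 and 907, or 20.7 and 34.4%. A Cd8a or Cd8b1 UMI was present in 48.4 and 55.3% of immature cells and in 83.3 and 87.8% of mature cells. The immature values thus include many cells without a CD8 UMI, and whether these cells lack CD8 was not tested. Among all thymic cells with such a UMI, the log2 ratio of the summed share was −0.57 (−0.59 to −0.54). Replication genes held 0.618 and 0.475% of UMIs in immature cells and 0.281 and 0.161% in mature cells, so immature cells were the richer under either label and the library labelled Pdcd1 cKO was the lower at either stage. The log2 ratio was −0.38 (−0.40 to −0.36) in immature cells, −0.80 (−0.87 to −0.73) in mature cells and −0.40 (−0.49 to −0.31) in the 65 and 185 cells with neither kind of UMI. The library labelled Pdcd1 cKO thus had both a smaller portion of immature cells and a lower share within each group so defined. Summed over all thymic cells, the immature list had 544 and 426 CPM, most of it Dntt, with 4 of 4 genes detected, and the mature list 345 and 576 CPM, with Ccr7 the most abundant and 3 of 3 detected. Their part in the result was not tested.

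Within mature cells the difference was larger, although all genes together also lay lower there. In them 39 of 42 members lay below 0, with a median of −0.98 against −0.28 over all genes, and 21 were at least 2-fold lower under the Pdcd1 cKO label (against 10.6% of all genes). Immature cells had 38 of 42 below 0, with a median of −0.40 against 0.00, and only Rfc4, 1 of 42, was at least 2-fold lower (against 4.12%). In mature cells Rfc4 had 71.4 and 22.0 CPM, a log2 ratio of −1.70 (−2.16 to −1.22), compared with −1.01 (−1.15 to −0.87) in immature cells. Tyms had 122 and 38.1 CPM in mature cells, a log2 ratio of −1.68 (−2.03 to −1.33). Pclaf had 172 and 58.0 CPM there, a log2 ratio of −1.57 (−1.86 to −1.27). Pcna fell less, at −0.39 (−0.57 to −0.19) in mature cells. These 3 genes are thus also far below 0 in its mature cells, with Pcna as the contrast.

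Clusters of thymic cells, made without the replication genes, were of a high or a low kind. In clusters 0, 1 and 2 replication genes held between 0.611 and 0.709% of UMIs in either library, while in the other clusters they held between 0.0779 and 0.412%. Within the high clusters the labels differed little: cluster 0 had 0.701% and 0.611%, cluster 1 0.661% and 0.709%, and cluster 2 0.624% and 0.625%. Of the 9 other clusters, 8 had the lower share under the Pdcd1 cKO label, among them cluster 5 with 0.412% and 0.179%, cluster 4 with 0.385% and 0.283% and cluster 9 with 0.251% and 0.154%. The high clusters were unevenly filled, however, with cluster 0 holding 48.0% and 5.43% of cells. Cluster 1 held the deepest cells, with medians of 9998 and 20284 UMIs, and under the Pdcd1 cKO label its 243 cells, 9.22% of the library, carried 47.2% of all replication UMIs. Without that cluster the thymic log2 ratio of the summed share was −0.99, an alternative chosen after seeing the data. Giving every cell the same weight, in place of every UMI, moved it to −0.70. The thymic direction is thus the same with and without the deepest cells.

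In the spleen the replication share followed depth. Cells under 2000 UMIs held 0.0797% and 0.104%, whereas cells with 2000 or more held 0.123% and 0.119%, from 182 and 1392 cells. The higher share under the Pdcd1 cKO label is thus seen in the shallow cells, and the part of depth in it was not tested. Cells also fell into different clusters: cluster 0 held 69.6% and 2.96% of cells, with replication shares of 0.0802% and 0.0957%. Cluster 7, led by Klra3 and other killer cell receptor genes, held 27 and 1623 cells with shares of 0.232% and 0.102%, so the few cells under the Pdcd1fl/fl label were the richer. Without cluster 7 the splenic log2 ratio of the summed share was 0.46, again an alternative chosen after seeing the data. Cells with 2000 or more UMIs then held 0.0988% and 0.125%, from 166 and 709 cells, so the order of the labels among deep cells depends on this cluster. In cluster 5 the labels were alike, at 0.132% and 0.137%.

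Granulocyte progenitor markers were among those that moved with the label in the spleen. The granulocyte progenitor list (Prtn3, Mpo, Elane, Ctsg and Ms4a3) had 2 of 5 genes detected under the Pdcd1fl/fl label, with 2.25 CPM summed, most of it Prtn3, and Mpo, Elane and Ctsg at 0. Under the Pdcd1 cKO label all 5 were detected, with 77.4 CPM summed and Mpo the most abundant. Cells with a progenitor UMI, 4 and 157 in number, held replication shares of 0.310% and 0.142%. An unnamed cluster led by Prtn3, Mpo and Elane, with 9 and 55 cells, held 0.212% and 0.293%. Without cells that had a progenitor UMI the splenic log2 ratio was 0.30. Without clusters named as another lineage it was 0.31. Without those and the cluster led by Prtn3, an alternative chosen after seeing the data, it was 0.27. The part of these markers in the result was not tested beyond these removals.

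The tumor libraries hold melanoma cells beside the T cells. T-cell-like clusters had 287 and 469 cells, and the cluster named melanoma-like, with all 10 melanoma markers, had 23 and 35. The T cell list (Cd3d, Cd3e, Cd3g, Trac, Trbc1, Trbc2, Cd8a, Cd8b1, Lck and Cd2, with Trbc2 the most abundant) summed to 6419 and 7375 CPM in T-cell-like cells and 178 and 299 in melanoma-like cells, with none of the 10 at 0. The melanoma list, led by Dct and Pmel, summed to 17666 and 20858 CPM in melanoma-like cells and 304 and 209 in T-cell-like cells, again with none of 10 at 0, so each group carries some RNA of the other, and its part in the values was not tested. Replication genes held 0.103% (0.0962 to 0.110%) and 0.104% (0.0986 to 0.109%) of UMIs in melanoma-like cells, less than in T-cell-like cells of the same tumors. The log2 ratio of melanoma-like over T-cell-like cells was −1.23 (−1.33 to −1.13) under the Pdcd1fl/fl label and −1.32 (−1.40 to −1.25) under the Pdcd1 cKO label. Melanoma-like cells were far deeper, with medians of 28839 and 38348 UMIs, and per cell they held more replication UMIs, a mean of 38.9 and 44.8 compared with 32.3 and 29.1 in T-cell-like cells. The medians, 22 and 26 compared with 24 and 23, were close. The share was thus lower while replication UMIs per cell were similar or higher.

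Of 41 members with at least 20 UMIs, 22 were at least 2-fold lower in melanoma-like cells under the Pdcd1fl/fl label (against 14.8% of all genes) and 1, Dnmt1, at least 2-fold higher (against 35.6%). Under the Pdcd1 cKO label 18 of 42 were at least 2-fold lower (against 16.2%) and 0 higher (against 32.3%). The medians were −1.09 and −0.93, against 0.54 and 0.42 over all genes, so the members lay below most genes in either tumor. The reduced total shifts these ratios by −0.39 and −0.32, for every gene alike. With it 30 of 41 are at least 2-fold lower under the Pdcd1fl/fl label (against 21% of all genes) and 0 higher (against 25.4%), so the call of Dnmt1 ends. Under the Pdcd1 cKO label the counts become 31 of 42 lower (against 21.5%) and 0 higher (against 24.6%). Pclaf had 32.2 and 45.0 CPM in melanoma-like cells, with log2 ratios against T-cell-like cells of −3.09 (−3.69 to −2.55) and −2.84 (−3.21 to −2.49). Mcm7 had 10.4 and 4.63 CPM, at −2.30 (−3.45 to −1.35) and −3.46 (−4.79 to −2.40). Rpa2 had 15 and 23.2 CPM, at −2.62 (−3.55 to −1.83) and −2.80 (−3.33 to −2.31). The clamp partner, the helicase subunit and the single-strand binding subunit thus all lay far under their T-cell-like levels. By contrast Dnmt1, the maintenance methyltransferase, had 57.5 and 15.2 CPM, a log2 ratio of 1.28 (0.75 to 1.79) under the Pdcd1fl/fl label but −0.63 (−1.34 to 0.02) under the other, so the libraries differ in it. Cdc6 had 0 and 3 UMIs in melanoma-like cells and 34 and 48 in T-cell-like cells, which under the Pdcd1fl/fl label, with the floor of 3 counts, is at least 2.57-fold lower.

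By role, melanoma-like cells were lowest in nucleotide supply, the clamp group and the MCM helicase. Nucleotide supply had log2 ratios of −1.57 (−1.80 to −1.36) and −1.61 (−1.77 to −1.45), and the clamp group −1.57 (−1.75 to −1.39) and −1.50 (−1.63 to −1.37). The MCM helicase had −1.47 and −1.62. Chromatin and DNA methylation genes had −0.06 (−0.35 to 0.23) and −0.59 (−0.85 to −0.34), and regulators of S phase entry 0.14 (−0.52 to 0.76) and −0.29 (−0.87 to 0.25), where the value above 0 turns to −0.25 with the reduced total. Among these, Ccne1 lay above 0 under the Pdcd1fl/fl label, at 0.70 (−0.17 to 1.5), with 20.7 and 7.28 CPM in melanoma-like cells. Leading members in melanoma-like cells had 140.4 and 132 CPM for Pcna and 79.4 and 72.1 CPM for Dut, while Slbp had 52.9 and 48.3 CPM and Orc6 had 28.8 and 29.1 CPM. Cluster 1 of the tumors, with all 10 melanoma markers but led by the collagen genes Col1a1, Col3a1 and Col1a2, stayed unnamed. Its melanoma list summed to 18236.5 and 16591.1 CPM, near the sums of the melanoma-like cells. The gene and role values above for melanoma-like cells thus leave out other cells rich in melanoma RNA. Within this cluster the collagens came mostly from the cells labelled Pdcd1fl/fl. In those cells the fibroblast list (Col1a1, Col1a2, Col3a1, Dcn, Pdgfra and Lum) had 6 of 6 genes and 348 CPM, most abundant Col1a2. In the cells of the cluster under the other label it had 2 of 6 genes and 5.17 CPM, most of it Lum. Col1a1, Col3a1, Dcn and Pdgfra were at 0 in the latter cells. Their part in the result was not tested. Its 119 and 23 cells held replication shares of 0.188% (0.184 to 0.192%) and 0.143% (0.135 to 0.151%), above the melanoma-like cells and below the T-cell-like cells. The macrophage or monocyte-like cluster of 27 and 34 cells held 0.127% (0.114 to 0.142%) and 0.111% (0.101 to 0.122%). With cluster 1 in place of the melanoma-like cluster, chosen after seeing the data, the log2 ratios against T-cell-like cells were −0.36 and −0.86. When cells were instead assigned by their own marker UMIs, 144 and 58 melanoma cells gave −0.47 and −1.15. The direction held each time, with a size that depends on which cells count as melanoma.

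T-cell-like clusters of the tumors were themselves unequal. Cluster 2, led by Rgs10, Emb and Gimap5 with Ccr7 among its leading genes, had 32 and 2 cells and the lowest share, 0.0597% under the Pdcd1fl/fl label. Cluster 5, with 77 and 37 cells and Gzmc among its leading genes, had 0.306% and 0.331%. Most T-cell-like cells under the Pdcd1 cKO label, 328, fell in cluster 7, which held 14 cells of the other library, with 0.229% and 0.253%. Cluster 3, with 131 and 70 cells, had 0.217% and 0.235%. Within the clusters that both libraries filled, the labels thus differed less than the clusters did.

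To compare cells at the same depth, each cell was thinned at random to 1000 UMIs, and a cell with at least 5 UMIs of the 42 genes among them was called high in replication RNA. In the thymus 49.5% (46.4 to 52.5%) of cells were high under the Pdcd1fl/fl label and 22.6% (21 to 24.2%) under the Pdcd1 cKO label. In the spleen 1.08% (0.620 to 1.75%) and 1.75% (1.40 to 2.15%) were high, and among tumor T-cell-like cells 15.7% (11.7 to 20.4%) and 13.6% (10.7 to 17.1%). With another random seed the tumor percents were 11.8% and 14.9%, so the order of the labels turns there. In the thymus the same seed gave 48.5% and 23.1%. Cells beside the threshold, at 4 or 5 UMIs, numbered 195 and 312 for thymus, 31 and 154 for spleen and 49 and 78 among tumor T-cell-like cells. Cells with no replication UMI after thinning made up 9.37% and 16.4% of thymic cells, 47.0% and 38.0% of splenic cells and 26.8% and 17.1% of tumor T-cell-like cells. Without thinning, the mean was 34.1 and 28.6 replication UMIs per thymic cell, 1.34 and 2.00 per splenic cell and 32.3 and 29.1 per tumor T-cell-like cell. After thinning, the means were 5.08 and 3.08, 0.834 and 1.08, and 2.24 and 2.45. Of melanoma-like cells, 1 of 23 and 0 of 35 were high. In cluster 1 of the tumors, also rich in melanoma RNA, 14 of 119 (11.8%, 6.58 to 19.0%) and 0 of 23 were high.

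**Figure D3:**
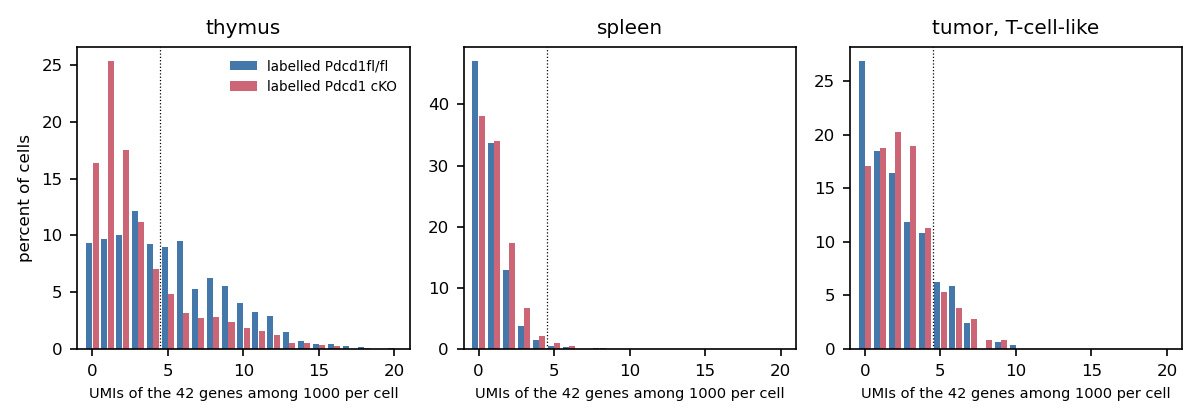
Percent of cells (vertical axis, with its own scale in each panel) by the number of UMIs of the 42 genes among 1000 UMIs of a cell (horizontal axis), for each tissue and label. The dotted line between 4 and 5 marks where a cell counts as high. The thymic library labelled Pdcd1fl/fl, with 49.5% of cells past the line, has the largest part there.

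Replication and mitosis follow each other in the cell cycle, so cells were split by RNA of 20 mitosis genes such as Mki67, Ccnb1 and Birc5, none of them a member. Cells with at least 2 UMIs of that list after thinning were compared with the others. In the thymic library labelled Pdcd1fl/fl, 460 cells with and 607 without mitosis RNA held replication shares of 0.648% and 0.486%. In that labelled Pdcd1 cKO, 524 and 2111 cells held 0.646% and 0.294%. In the summed share, which weights cells by their UMIs, cells with mitosis RNA were thus alike under the labels. The thymic difference of that share lay in cells without mitosis RNA and in how many cells had such RNA. At equal depth, 64.6 and 58.2% of thymic cells with mitosis RNA were high in replication RNA. Of those without it, 38.1 and 13.7% were high. Single genes did differ in cells with mitosis RNA: Rfc4 stood at 155 and 96.5 CPM, Tyms at 388 and 289 and Pclaf at 657 and 524. Pcna ran the other way, at 635 and 738 CPM. In cells with over cells without mitosis RNA, all 42 members lay above 0 in either library. The medians were 0.38 and 1.07 against −0.01 and 0.09 over all genes. At least 2-fold higher were 0 members under the Pdcd1fl/fl label (against 2.89% of all genes) and 26 under the other (against 5.9%). Under the Pdcd1 cKO label Pclaf led, at 524 against 146 CPM, a log2 ratio of 1.84 (1.76 to 1.92), and Fen1, Gins3 and Rpa2 were lowest, at 0.62 (0.42 to 0.82), 0.65 (0.33 to 0.97) and 0.67 (0.52 to 0.83). The mitosis list itself held 0.217% and 0.123% of thymic UMIs, all 20 of its genes were lower under the Pdcd1 cKO label, and its summed log2 ratio was −0.82 (−0.85 to −0.79).

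In the spleen few cells had mitosis RNA. Only 8 cells had it under the Pdcd1fl/fl label, too few to split, and 58 of 4928 under the Pdcd1 cKO label, where replication genes held 0.286% with and 0.108% without it. Of 41 members, 38 lay above 0, with a median of 1.60 against 0.06 over all genes, and 31 were at least 2-fold higher (against 17.6% of all genes). Pole and Chaf1a had no UMI in the cells with mitosis RNA and count on neither side. Pclaf had 169 against 7.50 CPM, a log2 ratio of 4.5 (3.73 to 5.21), Rrm2 lay at 3.87 (2.78 to 4.83) and Tyms at 3.06 (2.18 to 3.84). Pcna, at 347 against 209 CPM, lay at only 0.73 (0.27 to 1.15), Slbp at 0.71 (0.15 to 1.23) and Cdt1 at −0.24 (−1.56 to 0.81). Of the UMIs of each gene, 25% of those of Pclaf came from the 58 cells, compared with 2.39% of those of Pcna. Not all of these cells need be T cells. Under the same label the 55 cells of the cluster led by Prtn3, Mpo and Elane had a mitosis share of 0.119%. Their replication share was 0.293%, and the part of this cluster in the split was not tested. Over whole splenic libraries mitosis RNA held 0.0113% and 0.0113% of UMIs. It held 0.00646% and 0.00877% in cells under 2000 UMIs and 0.0279% and 0.0147% in deeper cells. The labels thus run in opposite directions by depth, but this depends on cluster 7. Without that cluster, an alternative chosen after seeing the data, the share was higher under the Pdcd1 cKO label at both depths. It was 0.00646% and 0.00927% in cells under 2000 UMIs and 0.00976% and 0.0181% in deeper cells.

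Tumor T-cell-like cells did not show such a split. With and without mitosis RNA, replication genes held 0.263% and 0.234% under the Pdcd1fl/fl label, a log2 ratio of 0.17 (0.11 to 0.24), and 0.263% and 0.259% under the Pdcd1 cKO label, at 0.03 (−0.03 to 0.08). Members at least 2-fold higher with mitosis RNA numbered 0 of 40 and 0 of 42 (against 4.7% and 3.54% of all genes), and 0 and 3 were at least 2-fold lower (against 5.36% and 8.39%). Above 0 lay 28 of 40 and 19 of 42. Thinning leaves few mitosis UMIs per cell, so cells were also ranked by mitosis share at full depth, a split chosen after seeing the data. The 25% of cells with the highest mitosis share over the 25% with the lowest gave log2 ratios of the replication share of 1.56 (1.43 to 1.70) and 0.53 (0.45 to 0.61) in tumor T-cell-like cells and 1.39 and 2.20 in the thymus. The spleen is left out, as its 251 and 1010 mitosis UMIs are fewer than its cells, so that most cells tie. These groups also differ in depth, with medians of 16166 against 8124 UMIs per tumor cell under the Pdcd1fl/fl label and 10698 against 7420 under the other, and the part of depth was not tested. In this ranking, tumor cells poor in mitosis RNA were also poorer in replication RNA, 0.0849% compared with 0.251% under the Pdcd1fl/fl label and 0.167% compared with 0.241% under the other. The mitosis list held 0.0863% and 0.0952% of UMIs in these cells.

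Another 47 genes of the pathway are not among the 42. In the thymus 39 of 47 lay below 0, 2 were at least 2-fold lower and 0 higher (against 5.33% and 8.75% of all genes), and the summed log2 ratio was −0.29 (−0.31 to −0.27). Those past 2-fold were Pold2, a polymerase delta subunit, at −1.28 (−1.43 to −1.13), and Asf1b, a histone chaperone, at −1.01 (−1.21 to −0.81). In the spleen 3 of 43 were at least 2-fold higher and 1 lower (against 9.18% and 2.83%), and in tumor T-cell-like cells 1 and 3 of 47 (against 9.62% and 4.28%), so none of these counts stands out from all genes. Cdk2, the kinase partner of cyclin E, had 406 CPM in melanoma-like and 17.7 CPM in T-cell-like cells under the Pdcd1fl/fl label, a log2 ratio of 4.52 (4.14 to 4.91), and 5.01 (4.66 to 5.38) under the other. Its annotated gene overlaps that of the melanoma gene Pmel on the opposite strand, and the part of Pmel RNA in this value was not tested.

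The members lie on 15 chromosomes, with the most, 7, on chromosome 5. In the GENCODE annotation 15 of the 42 overlap another protein-coding gene, always on the opposite strand, for example Mcm7 with Cops6 and Ap4m1, Rfc4 with Eif4a2 and Pclaf with Trip4. These 15 held 31.1 and 29.1% of member UMIs in thymic, 28.1 and 25.2% in splenic and 34.1 and 35.8% in tumor T-cell-like cells. Without them, an alternative chosen after seeing the data, the log2 ratios of the summed share were −0.49, 0.36 and 0.07, so the directions are the same without the overlapping genes.

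The promoters of the members were searched for the E2F motif, since E2F factors are known to control many replication genes. The window ran from 250 bases before to 50 after the start of the Ensembl canonical transcript of each gene (GRCm39), which for some genes, Gins1 among them, is not the outermost start of the annotated gene, and the letters searched on both strands were TTTCCCGC, TTTCGCGC, TTTGCCGC and TTTGGCGC, forms of that motif. At least 1 match was present in 12 of 42 members (28.6%), in 12 of the 47 other pathway genes (25.5%) and in 1 of the 20 mitosis genes, compared with 614 of 21770 protein-coding genes (2.82%). Without the 50 bases after the start these counts were 4 members (9.52%) and 5 other pathway genes (10.6%), compared with 2.28% of protein-coding genes, so most members with a match have it only within those 50 bases. With 2 or more matches in the full window there were 7 members and 26 of all genes (0.119%). TTTGGCGCCAAA reads the same on either strand, so it counts as 2 overlapping matches in Gins1, and TTTCGCGCCAAA in Mcm5 holds TTTCGCGC and, on the other strand, TTTGGCGC. Stretches of these 7 members are shown because they hold the motif most often. They lie at chr1:20890489-20890518 (minus strand) for Mcm3, chr16:15455309-15455368 (minus strand) for Mcm4, chr8:75835962-75836021 (plus strand) for Mcm5, chr1:128287456-128287515 (minus strand) for Mcm6, chr2:150751504-150751533 (plus strand) for Gins1, chr5:151574658-151574687 (minus strand) for Rfc3 and chr2:154411780-154411809 (minus strand) for E2f1, are written 5′ to 3′ on the strand of the gene, and have the matches in capitals. For Mcm4 and Mcm6 the stretch holds 1 of the matches.
Mcm3: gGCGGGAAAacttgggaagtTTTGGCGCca
Mcm4: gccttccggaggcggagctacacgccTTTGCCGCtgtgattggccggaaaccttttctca
Mcm5: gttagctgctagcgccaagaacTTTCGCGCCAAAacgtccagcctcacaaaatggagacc
Mcm6: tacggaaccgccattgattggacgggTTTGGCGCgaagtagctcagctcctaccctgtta
Gins1: aTTTGGCGCCAAAgcgaggagctggttgct
Rfc3: acgcTTTCGCGCtcGCGGGAAAactctact
E2f1: cGCGGCAAAaaggaTTTGGCGCgtaaaagt
A match describes the letters of the window only, and binding was not measured. The thymic log2 ratios of the 7 members run from −0.68 (Mcm5) to −0.09 (Rfc3), and Rfc4, Tyms and Pclaf have no match in this window.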

How the data were processed

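For each library the authors aligned PIPseq reads to GRCm39 with the PIPseq pipeline v3.2 and deposited raw UMI counts of 32227 genes per cell barcode, and these counts were used without further normalization. The cell filter of the study's methods was applied (500 genes or more, 1000 UMIs or more, mitochondrial UMIs not above 20%). It kept 1067 of 1067 and 2635 of 2674 barcodes from thymus, 1478 of 6929 and 4928 of 4963 from spleen, and 456 of 457 and 561 of 561 from tumors. In the spleen labelled Pdcd1fl/fl, 5267 barcodes had under 1000 UMIs. Totals of the kept cells were 6389966 and 19143524 UMIs for thymus, 2220981 and 8923997 for spleen, and 9380835 and 7924590 for tumors. Doublets were neither called nor removed, and free RNA was not subtracted.

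Both libraries of each tissue were merged, log-normalized and clustered with scanpy 1.11.5 (2000 variable genes, 20 principal components, 15 neighbours, Leiden resolution 0.8) without the members, the mitosis list, histone, mitochondrial and ribosomal protein genes. A cluster was named when at least 3 markers of a lineage were in at least 10% of its cells and at least 2-fold higher than elsewhere (T cells: at least 3 markers in at least 25% of cells and no other lineage), unless its 10 leading genes held more markers of another lineage. These naming thresholds were set with the files already seen. The members and lists were chosen with earlier results of these data known. Counts were summed over cells and scaled to CPM, with exact Poisson, Clopper-Pearson and conditional binomial intervals (python 3.11.15, numpy 2.4.6, scipy 1.17.1, pandas 2.3.3; figures with matplotlib 3.10.9). A ratio needed at least 20 UMIs in the pair, and a gene with 0 UMIs on a side got a floor of 3 counts, which could not carry the ratio past 0. Thinning to 1000 UMIs left out no cell, since the filter asks for as many. Genes named are Pdcd1, the member with the most UMIs in each role, and the 3 highest and 3 lowest ratios of each tissue; others named were chosen after their values were seen. Coordinates are from GENCODE vM39. Alternatives to the filter, the scaling total, the cells and the thresholds are given in the closing section.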

Additional observations from a re-analysis of the deposited data

Results flagged for a closer look

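The summed share of the 42 replication genes differed between labels in every tissue and ran in opposite directions, and no one library has a replicate. The log2 ratio of the library labelled Pdcd1 cKO over that labelled Pdcd1fl/fl was −0.53 in the thymus, 0.30 in the spleen and 0.10 in tumor T-cell-like cells. The difference was not tested in any tissue. In the thymus, the portion of immature cells, the filling of clusters and fibroblast markers (64.2 and 20.8 CPM summed) moved with the label. In the spleen, depth per cell and markers of other lineages did, granulocyte progenitors among them. In tumor T-cell-like cells, the filling of clusters and the summed CPM of Ccr7, Klf2 and S1pr1 (375 and 72.8) did. Without cells that had a progenitor UMI, or without clusters of other lineages, the splenic log2 ratio lay between 0.27 and 0.31. Beyond such alternatives, their part in the results was not tested.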

How the results depend on the processing

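Under other settings 41 values stayed the same, 39 moved and 2 reversed; the cause was not tested. The summed share in the spleen reversed to −0.26 with the strict filter, which keeps 81 and 865 cells, and that of tumor T-cell-like cells to −0.0224 with the total without mitochondrial, ribosomal protein and Malat1 UMIs.

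The thymic summed share stayed below 0 throughout. It was −0.61 with the strict filter, −0.35 with the reduced total, −0.46 under the median of ratios, −0.70 as a mean over cells, −0.57 in cells with a Cd8a or Cd8b1 UMI, −0.79 in cells without an immature UMI, −0.99 without the deepest cluster and −0.49 without overlapping members. The thymic count of members at least 2-fold lower went from 3 to 1 under either scaling.

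The splenic summed share was 0.42 with every barcode, 0.17 with the reduced total, 0.13 under the median of ratios, 0.46 without cluster 7, and 0.34 when only cells with at least 2000 UMIs were kept as well. The count at least 2-fold higher went from 5 to 1 with at least 100 UMIs in the pair, where fewer genes are tested, and the count at least 2-fold lower from 0 to 1 under either scaling and with no minimum.

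The tumor T-cell share was 0.0214 under the median of ratios and 0.22 as a mean over cells; the counts past 2-fold stayed at 0. Melanoma-like over T-cell-like was −0.47 and −1.15 by the per-cell rule, −1.63 and −1.65 with the reduced total, −1.05 as a mean over cells under the Pdcd1fl/fl label, and −0.36 and −0.86 with cluster 1.

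Percents of high cells move when the threshold is 3 or 10 UMIs: thymus 70.9 and 40.8 at 3, 14.0 and 6.64 at 10; spleen 6.36 and 10.5, then 0.0677 and 0.0406; tumor T-cell-like 38.3 and 43.9, then 0.348 and 0. In the spleen the order of the labels turns only at 10 UMIs, where very few cells pass. The intervals there overlap, at 0.00171 to 0.376% and 0.00492 to 0.147%. In tumor T-cell-like cells the order also differs between thresholds, and at 10 UMIs very few cells pass. Depth limits the spleen most: with a median under 2000 UMIs per cell, many members have few UMIs, and a difference under 2-fold in a scarce gene would not be seen.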
